A study of Mus musculus with 5 samples.

Results

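The data describe 10 noncoding RNA genes in single-nucleus RNA sequencing of mouse interscapular brown adipose tissue (iBAT): Ctcflos, Plet1os, Gm11659, Gm11714, Gm26854, Gm12002, Gm20125, 9330188P03Rik, Gm41414 and Gm15987. They were picked by symbol from 32285 genes counted in both matrices, because in these same data they led a cell type or differed between classes of adipocyte nuclei. Levels by cell type and by adipocyte class are therefore a description without a test. The 3-month matrix joins 2 libraries, 1 from WT littermate controls and 1 from Ucp1-STX4KO mice, in which floxed Stx4 is deleted by Ucp1-Cre and so only in cells that switch on Ucp1. The WT controls carried either Ucp1-Cre or the floxed Stx4 alleles. The aging matrix joins 3 libraries from C57BL/6J mice aged 2, 12 and 24 months. Per the methods the mice were male and on a C57BL/6J background, nuclei were sorted by flow cytometry, and how the mice were divided among libraries is not stated. Barcodes end in a library number, and no label ties a number to a genotype or an age. Each condition has 1 library, so no genotype or age comparison could be made, and library 1, library 2 and library 3 are numbers of barcodes only.

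Long noncoding RNA genes make transcripts that are spliced and usually polyadenylated but hold no long open reading frame. Many are transcribed from inside or beside a protein-coding gene, often on the opposite strand, and many are more restricted to one cell type than protein-coding genes are. Part of their RNA stays in the nucleus, which makes nuclear libraries a favourable place to count them. Brown adipose tissue holds thermogenic adipocytes, a dense capillary bed with its mural cells, and smaller numbers of progenitors, immune cells and Schwann cells.

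The 3-month matrix held 20307 nuclei with a median of 4970 unique molecular identifiers (UMIs), and the aging matrix held 30000 with a median of 1553. Nuclei were assigned to cell types with protein-coding marker genes alone. The labels name the cell type as brown adipocytes. By markers this held for 15605 nuclei of the 3-month matrix, whereas in the aging matrix 1883 nuclei entered the adipocyte gate and 17854 the endothelial gate, led by Cyyr1, Selp, Adgrl4 and Flt1. Levels are given as CPM, the UMIs of a gene per 1000000 UMIs of the same nuclei, with exact 95% Poisson intervals in parentheses. Ratios carry exact 95% intervals, and all intervals cover counting error only. Counts are of transcript 3′ ends and are not per length, so a level is compared between gates or libraries and never between genes. Library 2 of the 3-month matrix stood apart: it held 660 of the 729 white-like adipocyte nuclei, 274 of the 282 skeletal muscle nuclei and 396 of the 465 macrophages, so within-library values stand beside pooled ones. Stx4a, the gene targeted in the knockout, had 60.1 CPM in adipocyte nuclei of library 1 and 50.2 CPM in those of library 2, and since 3′ counts need not fall in the deleted part this checked no label.

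All 10 genes lie in named positions of the GRCm38 build, and 7 of them overlap a protein-coding gene on the opposite strand. Ctcflos (ENSMUSG00000087382) spans chr2:173110818-173133204 on the plus strand, overlaps the start of Ctcfl, the testis paralog of the insulator protein CTCF, and ends 19844 bases before Pck1, the gluconeogenic and glyceroneogenic carboxykinase. Plet1os (ENSMUSG00000101304) spans chr9:50488795-50507823 on the minus strand, across Plet1, a surface protein of epithelial progenitors. Gm11659 (ENSMUSG00000085134, chr11:104250902-104259361, minus) lies inside Mapt, which encodes the microtubule protein tau. Gm11714 (ENSMUSG00000087113, chr11:107428276-107435686, plus) lies inside Pitpnc1, a phosphatidylinositol transfer protein. Gm26854 (ENSMUSG00000097232, chr15:41758060-41788911, minus) lies inside Oxr1, a gene of oxidation resistance. Gm12002 (ENSMUSG00000086584, chr11:12314514-12351028, plus) lies inside Cobl, an actin nucleator. Gm15987 (ENSMUSG00000085786, chr6:128951204-128975029, minus) runs across Clec2g within a cluster of C-type lectin genes. The other 3 overlap no protein-coding gene. Gm20125 (ENSMUSG00000101969, chr10:16906427-17095807, minus) overlaps no annotated gene. 9330188P03Rik (ENSMUSG00000115149, chr14:105589476-105632054, plus) overlaps the noncoding gene Gm6145 and the miRNA gene Mir6390 on the opposite strand, and Gm41414 (ENSMUSG00000116029, chr16:5306801-5450664, plus) overlaps the rRNA gene n-R5s30 on the opposite strand. On their own strand, Gm11659 also holds Gm22743, a snoRNA gene, and Gm47310, a miRNA gene, and Gm15987 holds the miRNA gene Mir7649. Gm6145 had 0 UMIs in every gate of the 3-month matrix and at most 10 UMIs in any gate of the aging matrix. The strand setting of the counting is not given in the sources used here, so whether the counts keep overlapping pairs apart by strand was not checked.

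Beyond the overlaps, the nearest protein-coding genes lie 13794 to 2248248 bases away. Those nearest in genome order whose levels are not described are named here only. Rbm38 ends 76084 bases before Ctcflos, and Rpl10-ps3 and Pts flank Plet1os at 143827 and 13794 bases. Sppl2c and Kansl1 flank Gm11659 at 59739 and 73868 bases, and Nol11 and Psmd12 flank Gm11714 at 238895 and 43798 bases. Zfpm2 and Abra flank Gm26854 at 653468 and 75165 bases, Grb10 and Pom121l12 flank Gm12002 at 275831 and 2248248 bases, and Nmbr lies 2135577 bases before Gm20125.

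RefSeq start sites were held for 6 of the 10 genes. Windows of 300 bases at the start sites of 4 genes that led different cell types are shown, 5′ to 3′ on the strand of the gene, from the RefSeq table of GRCm38.p6. Capitals mark matches, on either strand, to short motifs searched in all 32851 promoters. They are AGGTCA, the core of nuclear receptor sites (in 16.3% of promoters), TTGCNNAA of C/EBP factors (10.8%), GAGGAAG of ETS factors (13.6%) and the TATA box TATAAA (13.6%). Also searched were CAGCTG of E-box factors (16.3%), AGATAA of GATA factors (11.2%), TCAAGGTCA of estrogen-related receptors (0.423%), the DR1 repeat of PPAR (0.0396%), the MEF2 motif (3.69%) and the full NFI motif (0.0365%), of which TCAAGGTCA and DR1 contain AGGTCA. None of these stood in the 4 windows. A match describes letters and not a bound site. The Ctcflos window (chr2:173124499-173124798, plus) starts inside the annotated gene and holds a C/EBP, a nuclear receptor and a TATA match. It lies upstream of Ctcfl, a minus-strand gene whose 5′ end is at 173119525. The Plet1os window (chr9:50504756-50505055, minus) holds 1 C/EBP match, the Gm12002 window shown (chr11:12314237-12314536, plus) 1 ETS match, and the Gm15987 window (chr6:128974980-128975279, minus) 1 C/EBP match. Gm12002 has 3 RefSeq start sites, and the one shown is the nearest to the annotated start of the gene. The windows of its other two start sites (chr11:12313390-12313689 and chr11:12313396-12313695) held 0 matches and had 27.7% and 28.3% G or C, beside 49.7% in the one shown.
Ctcflos promoter: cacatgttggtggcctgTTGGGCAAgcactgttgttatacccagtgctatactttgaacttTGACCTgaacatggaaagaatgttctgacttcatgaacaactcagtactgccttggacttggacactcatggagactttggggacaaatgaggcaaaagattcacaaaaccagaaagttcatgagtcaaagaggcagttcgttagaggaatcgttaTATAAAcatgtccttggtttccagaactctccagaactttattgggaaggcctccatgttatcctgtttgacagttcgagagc
Plet1os promoter: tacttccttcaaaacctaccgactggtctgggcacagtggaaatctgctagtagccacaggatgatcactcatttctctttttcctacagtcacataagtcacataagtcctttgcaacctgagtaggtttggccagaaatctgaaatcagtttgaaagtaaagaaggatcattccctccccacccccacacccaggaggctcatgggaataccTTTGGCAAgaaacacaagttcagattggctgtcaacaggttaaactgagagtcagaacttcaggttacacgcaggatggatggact
Gm12002 promoter: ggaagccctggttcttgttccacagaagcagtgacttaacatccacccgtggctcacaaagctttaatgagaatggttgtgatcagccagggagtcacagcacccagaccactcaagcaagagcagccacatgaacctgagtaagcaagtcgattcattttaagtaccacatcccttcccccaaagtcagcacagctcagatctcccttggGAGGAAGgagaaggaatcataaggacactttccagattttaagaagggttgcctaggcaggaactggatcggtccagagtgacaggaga
Gm15987 promoter: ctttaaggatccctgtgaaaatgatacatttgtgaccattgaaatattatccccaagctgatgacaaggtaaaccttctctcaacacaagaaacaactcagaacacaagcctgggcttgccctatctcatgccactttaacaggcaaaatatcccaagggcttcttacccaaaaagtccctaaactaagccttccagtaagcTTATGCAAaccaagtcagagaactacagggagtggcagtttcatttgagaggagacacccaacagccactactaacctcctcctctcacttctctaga

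The mural genes had no RefSeq promoter entry, and since the libraries read 3′ ends, the last 60 bases of 1 transcript of each are shown instead (GRCm38 transcripts of GENCODE M21). Capitals mark the polyadenylation signals AATAAA and ATTAAA. Such a signal stood in the last 60 bases of 22 of the 31 annotated transcripts of the 10 genes. Of these 31, 10 belong to Gm20125 and 7 to 9330188P03Rik, some with the same end, so they are not independent. By gene, 7 of the 10 had a signal in at least 1 transcript. Over all annotated transcripts the share was 51% for protein-coding and 31.3% for long noncoding ones, and nothing is read from the comparison. No such signal was found for Gm11659, Gm41414 or Gm15987.
9330188P03Rik 3′ end: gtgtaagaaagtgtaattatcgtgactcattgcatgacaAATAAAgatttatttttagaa
Gm20125 3′ end: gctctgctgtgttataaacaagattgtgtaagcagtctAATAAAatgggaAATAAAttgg

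Across cell types, 4 of the 10 genes led one gate of the 3-month matrix by at least 4-fold over every other gate of 50 or more nuclei: Ctcflos, Plet1os, Gm12002 and 9330188P03Rik. Over the aging libraries 6 did: Ctcflos, Plet1os, Gm12002, Gm20125, 9330188P03Rik and Gm41414. The matrices did not compare the same gates. Skeletal muscle nuclei (0) and T cells (27) were too few in the aging matrix, and Schwann nuclei (32) in the 3-month matrix. Numbers of leading genes are therefore not like for like between the matrices. Of the 10 genes, 9 and 7 held the 200 UMIs over gates that the count required, and Gm15987 fell short in both matrices. The same rule was passed by 8.24% of the 13072 genes tested in the 3-month matrix and by 10.2% of the 11749 in the aging matrix. The genes were picked on this contrast, so nothing is read from their share. Ctcflos lay just inside the limit in the 3-month matrix, with a ratio of adipocytes to the next gate of 4.28 (3.47–5.36). Just outside was Gm11714 at 3.69 (1.48–7.63), a ratio of T cells, with 7 UMIs, to adipocytes. Gm20125 was also just outside at 3.42 (2.50–4.74), mural nuclei over skeletal muscle. For the aging matrix the nearest were Gm41414 inside, at 5.82 (1.03–231), and Gm11714 outside, at 2.02 (1.31–3.28). The ratio of Gm41414 and that of Plet1os, 6.31 (1.12–251), each rested on 1 UMI in the next gate. Both intervals reach below 4, so a lead of 4-fold is not settled for these genes.

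**Figure D1:**
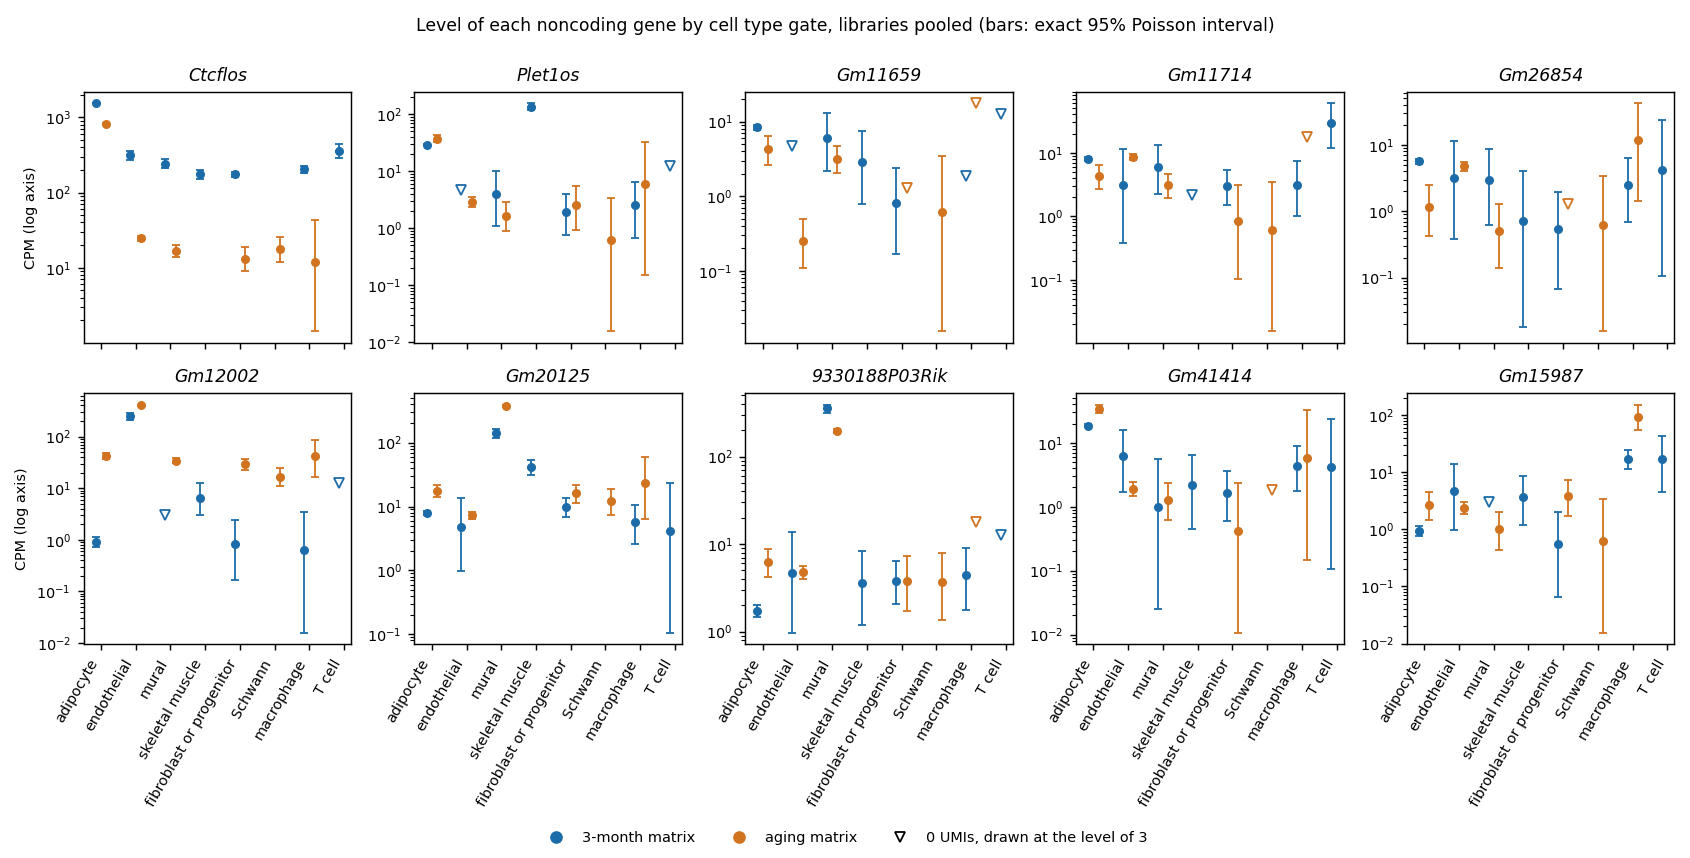
Level of each of the 10 genes (CPM, log axis) in every gate of at least 50 nuclei, in the 3-month matrix and the aging matrix, with libraries pooled. Bars are exact 95% Poisson intervals and open triangles are gates with 0 UMIs. Ctcflos is highest in adipocytes, Gm12002 in endothelial nuclei, and Gm20125 and 9330188P03Rik in mural nuclei, in both matrices.

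Ctcflos was the adipocyte gene of the group. It had 1147 CPM (1140–1155) and 2505 CPM (2487–2523) in adipocyte nuclei of libraries 1 and 2 of the 3-month matrix. The aging matrix gave 757 CPM (722–793), 881 CPM (841–923) and 838 CPM (777–903) in libraries 1, 2 and 3. The interval of library 3 of the aging matrix overlapped those of both others, which did not overlap each other, and library 2 of the 3-month matrix was 2.18-fold (2.16–2.20) above library 1. UMIs were found in 94.0% of adipocyte nuclei of the 3-month matrix, with a median of 7 UMIs per nucleus and a highest count of 179. When each nucleus was thinned to 1000 UMIs the share was 65.6%, beside 17.4% to 34.2% in the other gates of that matrix and 50.5% of adipocyte nuclei of the aging matrix. Counts varied more than sampling alone gives, with a variance 7.96 times the mean in library 1 and 19.2 times in library 2, part of which is the spread of depth between nuclei.

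Outside adipocytes, Ctcflos differed between the matrices. The other gates of the aging matrix had 11.8 to 24.6 CPM, and endothelial nuclei, the next gate, were 33.3-fold (30.8–35.9) below adipocytes. In the 3-month matrix the other gates had 174 to 359 CPM and 40.8% to 50.8% of their nuclei held a UMI. Adipocyte markers moved with this: their summed level was 17714 CPM in the adipocyte gate, 3807 to 7347 CPM in the other gates of the 3-month matrix, and 825 to 2644 CPM in those of the aging matrix. Ucp1, which encodes the uncoupling protein of brown fat, was at 13.1% to 41.3% of its adipocyte level in the other gates of the 3-month matrix, and Ctcflos at 11.3% to 23.3%. The number of Ctcflos UMIs per Ucp1 UMI was 1.12 in adipocytes of library 1 and 0.491 to 0.729 in its other gates, and 2.96 against 0.871 to 1.44 in library 2, so the 2 genes were not in 1 ratio in every gate. Whether free RNA accounts for these UMIs was not tested.

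The genes around Ctcflos had levels of their own. Ctcfl had 23.3 CPM (2386 UMIs) in adipocyte nuclei of the 3-month matrix and at most 3.14 CPM elsewhere, and 10.0 CPM against at most 0.613 CPM in the aging matrix. Both partners of this overlapping pair were thus highest in adipocytes. Pck1, 19844 bases away, had 1441 CPM in adipocyte nuclei of the 3-month matrix and 186 to 585 CPM elsewhere, and 1372 CPM against 44.8 to 171 CPM in the aging matrix. Between the libraries of the 3-month matrix they did not move with Ctcflos: in library 2, Ctcfl was at 0.817 (0.743–0.897) and Pck1 at 0.833 (0.823–0.842) of its level in library 1, while Ctcflos was at 2.18. The 3 genes whose levels were most like Ctcflos over 25 points, each a gate of 50 or more nuclei in 1 library, were Nrg4, a secreted factor of brown adipocytes (Pearson r of log2(CPM + 1) = 0.99), Acvr1c, a receptor that is also a marker of the gate (r = 0.99), and Acsl1, a fatty acid activating enzyme (r = 0.99). Points of 1 library share its depth and free RNA.

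**Figure D2:**
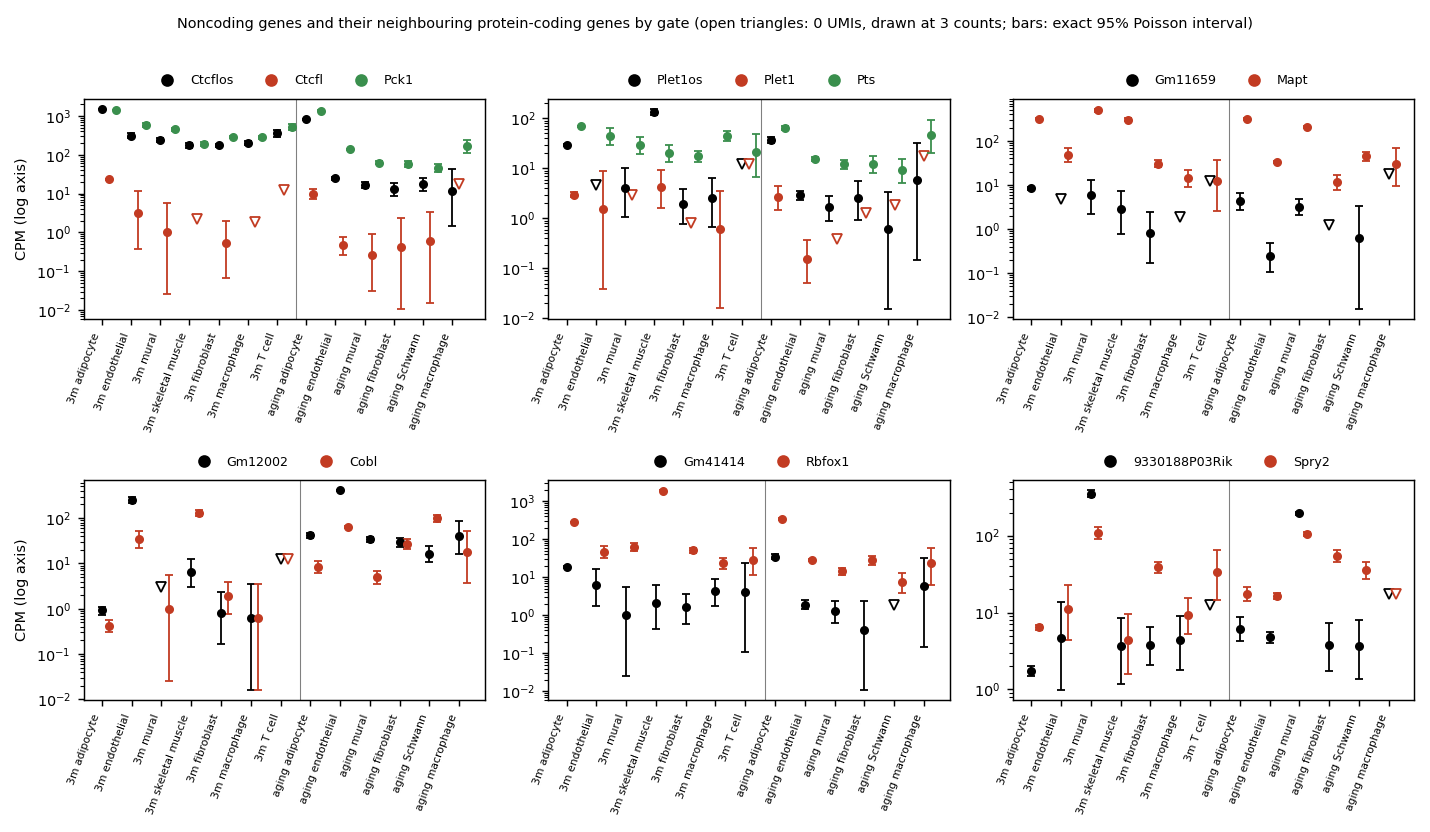
Levels (CPM, log axis) of 6 noncoding genes and of protein-coding genes beside or across them, by gate, with the 3-month matrix left of the grey line and the aging matrix right of it. Bars are exact 95% Poisson intervals and open triangles are 0 UMIs. Ctcfl and Pck1 peak with Ctcflos in adipocytes, whereas Cobl is highest in skeletal muscle and Schwann nuclei and Gm12002 in endothelial nuclei.

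Plet1os was counted in adipocytes and, at a higher level, in skeletal muscle. Adipocyte nuclei had 39.5 CPM (38.1–41.0) and 4.6 CPM (3.86–5.44) in libraries 1 and 2 of the 3-month matrix, and 36.3 CPM (29.0–44.8), 43.5 CPM (34.9–53.7) and 24.2 CPM (14.8–37.4) in libraries 1, 2 and 3 of the aging matrix. Library 2 of the 3-month matrix was the low one, below all 4 others without overlap of the intervals. In the 274 skeletal muscle nuclei of that same library Plet1os had 139 CPM (120–161), which was 30.3-fold (24.2–38.1) above its adipocyte nuclei. Gates other than these had at most 4.00 CPM in the 3-month matrix and at most 5.88 CPM, from 1 UMI, in the aging matrix. The aging matrix held 0 skeletal muscle nuclei, so adipocytes led it without that comparison.

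Within muscle, Plet1os differed with the myosin heavy chain of the nucleus. Nuclei were split after these levels had been seen, by the heavy chain gene with the most UMIs, of which at least 5 were required. Those led by Myh4, the chain of the fastest glycolytic fibres, had 191 CPM (160–228) and those led by Myh1, another fast chain, had 182 CPM (135–241). Nuclei led by Myh2, the chain of fast oxidative fibres, had 57.7 CPM (26.4–109), and those led by Myh7, the slow chain, had 4.15 CPM (0.105–23.1) from 1 UMI in 39 nuclei. The intervals of the fast glycolytic pair overlapped each other and lay above those of the others. Plet1 itself had 6 UMIs in all skeletal muscle nuclei and 2.98 CPM (305 UMIs) in adipocyte nuclei of the 3-month matrix, of which 301 UMIs were in library 1 and 4 in library 2. Both members of this overlapping pair were therefore lower in library 2, at 0.116 (0.0972–0.138) of library 1 for Plet1os and 0.0327 (0.00886–0.0847) for Plet1. The genes most like Plet1os were Dcun1d2 (r = 0.84), Idh2, a mitochondrial isocitrate dehydrogenase (r = 0.84), and Macrod1 (r = 0.83).

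Gm41414 was led by adipocytes in the aging matrix at 34.3 CPM, with 5.88 CPM from 1 UMI in the next gate. Adipocyte nuclei had 4.64 CPM (2.32–8.30), 64.1 CPM (53.4–76.2) and 47.2 CPM (33.6–64.6) in libraries 1, 2 and 3 of the aging matrix, and 23.1 CPM (22–24.2) and 7.57 CPM (6.61–8.63) in libraries 1 and 2 of the 3-month matrix. Library 1 of the aging matrix and library 2 of the 3-month matrix were the low ones, and libraries 2 and 3 of the aging matrix overlapped each other. Eef2kmt, a protein methyltransferase gene that ends 50818 bases before it, had 18.6 CPM, 28.5 CPM and 18.2 CPM in the same 3 aging libraries, and 19.7 CPM and 5.00 CPM in the 3-month ones. The nearest protein-coding gene after it, Rbfox1, an RNA splicing regulator 434691 bases away, had 111 CPM, 400 CPM and 829 CPM in the aging libraries, and 333 CPM and 146 CPM in the 3-month ones. Rbfox1 was also counted at 1886 CPM in skeletal muscle nuclei, where Gm41414 had 3 UMIs. The genes most like Gm41414 were Flad1, which makes flavin adenine dinucleotide (r = 0.86), Gm35853 (r = 0.84) and Gtf2ird1 (r = 0.84).

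Gm11659, Gm11714 and Gm26854 were low genes that led no gate clearly. Gm11659 had 11.1 CPM (10.4–11.9) and 1.39 CPM (0.994–1.88) in adipocyte nuclei of libraries 1 and 2 of the 3-month matrix, and 3.8, 3.5 and 7.26 CPM from 6 to 9 UMIs in the aging libraries. Gm11714 had 10.8 CPM (10.0–11.5) and 0.980 CPM (0.656–1.41) in the 3-month libraries, and 5.48, 4.50 and 0 CPM in the aging ones, where 0 UMIs in library 3 allow up to 3.63 CPM by 3 counts. Gm26854 had 7.64 CPM (7.02–8.30) and 0.676 CPM (0.413–1.04) in the 3-month libraries and 1 to 4 UMIs in each aging library. All 3 were 8.04- to 11.3-fold higher in library 1 than in library 2 of the 3-month matrix, with intervals that did not touch. Among the aging libraries Gm11714 (8.57 CPM, 273 UMIs) and Gm26854 (4.74 CPM, 151 UMIs) were also counted in endothelial nuclei, above their adipocyte levels of 4.24 and 1.16 CPM. In T cells of the 3-month matrix Gm11714 had 29.2 CPM from 7 UMIs (11.8 to 60.3 CPM).

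The hosts of these 3 genes had mixed patterns. Mapt had 320 CPM in adipocyte, 491 CPM in mural and 302 CPM in skeletal muscle nuclei of the 3-month matrix and 12.5 to 48.6 CPM in the other gates, and Gm11659 had its UMIs in the same 3 gates apart from 3 in fibroblast or progenitor nuclei. In adipocyte nuclei, library 2 was at 0.134 (0.128–0.141) of library 1 for Mapt and at 0.124 (0.0886–0.170) for Gm11659. Mapt was also the gene most like Gm11659 over the 25 points (r = 0.87), followed by Rarb (r = 0.83) and Sctr, the secretin receptor (r = 0.83). Pitpnc1, across Gm11714, was at 0.374 (0.366–0.382) of library 1 where Gm11714 was at 0.0911 (0.0606–0.132), and Oxr1, across Gm26854, at 0.515 (0.502–0.529) where Gm26854 was at 0.0885 (0.0536–0.138). Both hosts were counted in every gate, at 567 to 1763 CPM and 120 to 435 CPM in the 3-month matrix. The genes most like Gm11714 were Gm16573 (r = 0.81), 4933433G19Rik (r = 0.76) and Slc10a1 (r = 0.74), and those most like Gm26854 were Sirt1 (r = 0.74), Tusc2 (r = 0.66) and Tecpr1 (r = 0.65), lower likeness than for the genes above.

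Within the adipocyte gate of the 3-month matrix, 4 of the 7 genes with 200 UMIs there (Plet1os, Gm11659, Gm11714 and Gm26854) were at least 4 times lower in library 2 than in library 1, beside 3.94% of the 12280 genes tested. Of the 729 white-like adipocyte nuclei, 660 came from library 2. Since the genes were picked for leading a cell type or differing between adipocyte classes, nothing is read from their share. Each library is 1 sample, and what distinguishes the libraries cannot be told apart from the counts. In library 2, adipocyte nuclei had a median of 4668 UMIs, in library 1 of 6226.5, and Ucp1 was at 0.830 and Adipoq at 0.634 of library 1.

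**Figure D3:**
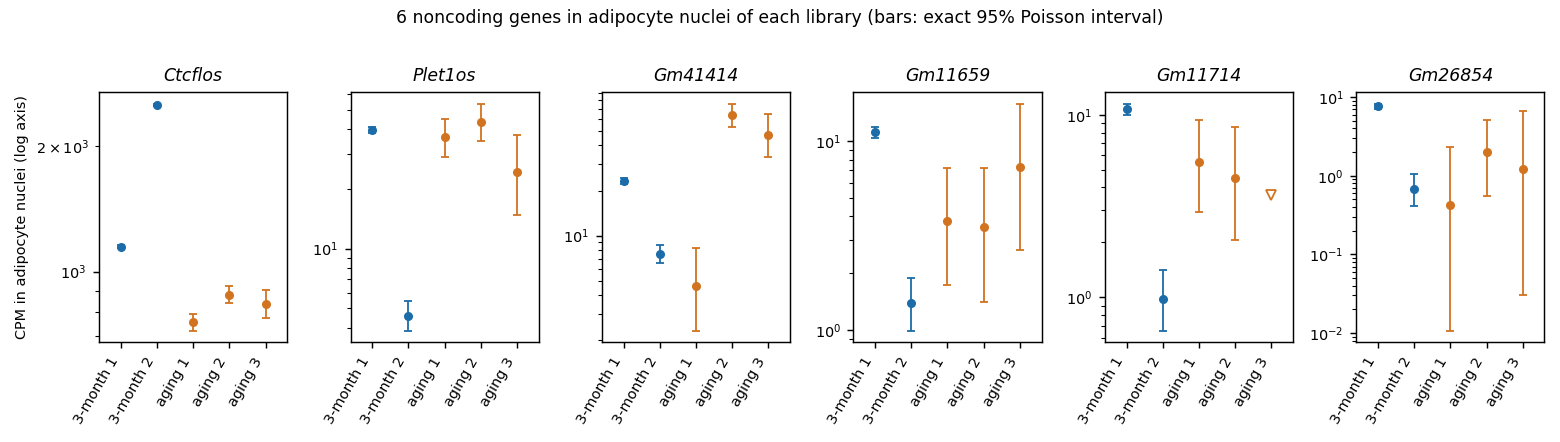
Level (CPM, log axis) of 6 genes in adipocyte nuclei of each of the 5 libraries, with exact 95% Poisson intervals and an open triangle for 0 UMIs. In library 2 of the 3-month matrix Ctcflos is the highest of the 5 libraries, at 2505 CPM, and Plet1os the lowest, at 4.6 CPM.

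A class of white-like nuclei was cut from the adipocyte gate by at least 3 of Cyp2e1, Aldh1a1, Lep, Nnat, Retn and Cmklr1, genes that are high in white fat. It held 729 nuclei of the 3-month matrix, 394 of them exactly at the cut, while 885 adipocyte nuclei were 1 marker short, so it is a range and not a type. Only 16 adipocyte nuclei of the aging matrix passed, too few to describe. White-like nuclei were deeper, with a median of 7293 UMIs against 5733. With libraries pooled, 5 of the 7 genes tested (Plet1os, Gm11659, Gm11714, Gm26854 and Gm41414) were at least 4 times lower in white-like than in other adipocyte nuclei, beside 2.97% of the 12280 genes tested. The pooled contrast mixes classes with libraries, since 660 white-like nuclei came from library 2 and 10313 of the 14876 others from library 1. Within library 1, 2 of 7 genes (Gm11659 and Gm11714) passed, beside 1.68% of 11419 genes, and within library 2, 0 of the 3 genes with enough UMIs (Ctcflos, Gm20125 and Gm41414) passed, beside 1.01% of 8997. The genes were picked on this contrast, so nothing is read from their shares.

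Gene by gene, the size of the class difference depended on whether libraries were pooled. Ctcflos had 1114 CPM in white-like and 1148 CPM in other adipocyte nuclei of library 1, and 2352 and 2540 CPM in library 2, ratios of 0.970 (0.909–1.04) and 0.926 (0.909–0.944), whereas the pooled ratio was 1.46 (1.44–1.49). The pooled excess was thus not seen within either library: the interval of library 1 spans 1 and that of library 2 lies below 1. Plet1os had 12 CPM (10 UMIs) against 39.8 CPM in library 1 and 2.34 CPM (13 UMIs) against 5.12 CPM in library 2, ratios of 0.300 (0.144–0.553) and 0.456 (0.236–0.810), and 0.115 pooled. It was lower in white-like nuclei of both libraries, by less than pooled. Gm41414 had 13.1 against 23.2 CPM in library 1, a ratio of 0.567 (0.283–1.02) that reaches 1, and 2.52 against 8.74 CPM in library 2, a ratio of 0.288 (0.155–0.494).

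The 3 low genes had 0 to 3 UMIs each in the white-like nuclei of a library, too few to size a difference closely. Gm11659 had 0 UMIs in the white-like nuclei of library 1, against 11.3 CPM in the others, and 1 UMI in library 2, against 1.66 CPM. Gm11714 had 1 UMI in each library, with ratios of 0.110 (0.00278–0.615) and 0.154 (0.00377–0.933). Gm26854 had 3 UMIs in library 1, 3.59 against 7.69 CPM, a ratio of 0.467 (0.0959–1.37) that spans 1, and 0 in library 2. Gm20125 went the other way, with 9.56 against 5.45 CPM in library 1, a ratio of 1.75 (0.752–3.49), and 25.3 CPM (141 UMIs) against 11.1 CPM in library 2, a ratio of 2.29 (1.85–2.82). 9330188P03Rik had 4 and 12 UMIs in white-like nuclei and ratios on opposite sides of 1, 5.84 (1.54–15.8) in library 1 and 0.508 (0.254–0.926) in library 2. For scale, Ucp1 was at 0.544 and 0.202 in libraries 1 and 2, and Adipoq, the adiponectin gene, at 1.52 and 2.34.

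**Figure D4:**
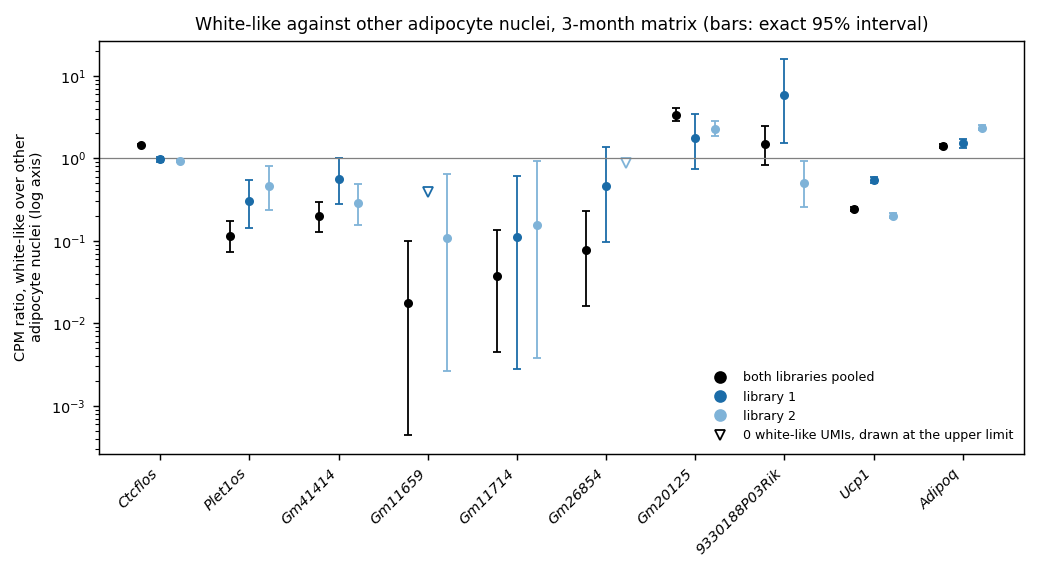
Ratio of CPM in white-like to other adipocyte nuclei of the 3-month matrix (log axis), pooled and within each library, with exact 95% intervals; open triangles stand at the upper limit where white-like nuclei had 0 UMIs, and the grey line is a ratio of 1. For Ctcflos the pooled ratio lies above 1 at 1.46 and both within-library ratios lie below 1, with an interval that spans 1 in library 1.

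Among the adipocyte nuclei that were not white-like, levels also varied with 2 metabolic gene sets. Nuclei of each library were ranked by the summed CPM of 12 genes of glycolysis or the hypoxia response (such as Hk2, Pgk1, Ldha and Vegfa), and the highest-scoring 25% was compared with the lowest-scoring 25%. In the 3-month matrix Gm11659 had 18.7 against 8.19 CPM in library 1, a ratio of 2.28 (1.87–2.79), and 2.95 against 1.03 CPM in library 2, a ratio of 2.86 (1.01–9.90). Gm41414 turned between libraries, with 13.5 against 29.9 CPM and a ratio of 0.453 (0.387–0.530) in library 1, and 14.8 against 4.96 CPM and a ratio of 2.98 (1.87–4.90) in library 2. The high-scoring nuclei of the 2 libraries had overlapping intervals for Gm41414, and the low-scoring nuclei lay on either side of them. Gm20125 was lower in the high-scoring nuclei of both libraries, at 0.498 (0.350–0.699) and 0.293 (0.187–0.449), as was 9330188P03Rik, at 0.393 (0.162–0.871) and 0.252 (0.131–0.456). Ctcflos was at 1.07 (1.05–1.09) and 1.24 (1.21–1.27). Plet1os was at 1.05 (0.942–1.17) in library 1 and, from 44 and 13 UMIs, at 2.84 (1.50–5.76) in library 2. Ucp1 had ratios of 1.05 and 2.43 over the same nuclei. Depth turned between the libraries as well, with medians of 5791 UMIs in high and 6490 in low scorers of library 1 and of 4119 and 3135 in library 2, and its part in these ratios was not tested.

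The same split of the aging matrix, with 76 to 212 nuclei on each side of a library, gave Ctcflos ratios of 1.44 (1.25–1.65), 1.20 (1.04–1.38) and 1.39 (1.10–1.76) in libraries 1, 2 and 3, so it was above 1 in all 5 libraries. Gm41414 had ratios of 4.78 (0.855–48.4), 1.09 (0.621–1.93) and 2.37 (0.684–10.4), each of which spans 1. Gm20125 was at 0.0911 (0.0106–0.354) in library 1, from 2 and 35 UMIs, whereas libraries 2 and 3 held 2 or 3 UMIs on each side. Plet1os ratios all spanned 1, and Gm11659, Gm11714 and Gm26854 had at most 6 UMIs on any side.

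By 8 lipogenic genes (such as Acaca, Acly and Fasn, enzymes of fatty acid synthesis), Ctcflos of the 3-month matrix had 1240 against 991 CPM in library 1, a ratio of 1.25 (1.23–1.28), and 2636 against 2368 CPM in library 2, a ratio of 1.11 (1.09–1.14). Gm41414 was lower in the high-scoring nuclei of library 1, with 12.5 against 37.3 CPM and a ratio of 0.335 (0.288–0.389), and in library 2 the ratio of 0.728 (0.487–1.09) reached 1. In the aging libraries Ctcflos did not keep to one direction: library 1 had 764 against 886 CPM, a ratio of 0.863 (0.752–0.990), while libraries 2 and 3 had ratios of 1.25 (1.10–1.42) and 1.44 (1.15–1.81). Gm41414 had 0 and 2 UMIs in library 1 of the aging matrix, and ratios of 1.33 (0.778–2.30) and 0.869 (0.292–2.54) in libraries 2 and 3, so the lower level of high scorers was not seen there. Gm26854 was at 1.61 (1.24–2.10) and Gm11659 at 1.50 (1.23–1.85) in library 1 of the 3-month matrix, while Gm11714 was at 0.699 (0.569–0.858). In its library 2 these 3 genes had 1 to 12 UMIs on each side, and no ratio could be told from 1. High and low scorers differed in depth, with medians of 7031 and 5646 UMIs in library 1 and 5377 and 3711 in library 2 of the 3-month matrix, and the part of depth in these ratios was not tested. Rorb, a nuclear receptor gene, gave another split: nuclei of its library 1 with 2 or more Rorb UMIs had 33 CPM of Gm41414 and those with 0 had 21.5 CPM, a ratio of 1.53 (1.32–1.77). The same split in library 2 rested on 2 Gm41414 UMIs in 66 nuclei, with a ratio of 0.436 (0.0524–1.60).

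Gm12002 was the endothelial gene. It had 695 CPM (583–823) in the 70 endothelial nuclei of library 1 and 51.9 CPM (32.9–77.9) in the 284 of library 2 of the 3-month matrix, and 530 CPM (502–558), 327 CPM (318–337) and 460 CPM (450–471) in libraries 1, 2 and 3 of the aging matrix. Library 2 of the 3-month matrix was 13.4-fold (8.56–21.8) below library 1, and its interval met none of the other 4. The next gate was 38.1-fold (19.6–84.8) lower in the 3-month matrix, skeletal muscle with 9 UMIs, and 9.72-fold (8.51–11.2) lower in the aging matrix, adipocytes with 42.2 CPM. Every other gate of the aging matrix had 16.6 to 42.2 CPM, and the summed endothelial markers were 362 to 1847 CPM there against 9898 CPM in the endothelial gate.

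Within endothelial nuclei, Gm12002 was highest in those that held capillary genes (at least 2 of Gpihbp1, Rgcc, Car4, Cd300lg, Btnl9 and Cd36, and more of these than of arterial or venous genes). These lists were chosen after the levels by gate had been seen. Capillary nuclei of the aging matrix had 440 CPM (432–448), arterial nuclei 131 CPM (100–169) and venous nuclei 35.7 CPM (23.7–51.6), 3 levels whose intervals did not touch. In the 3-month matrix 157 of the 158 endothelial UMIs lay in capillary nuclei, where library 1 had 712 CPM (597–843) and library 2 69.6 CPM (43.6–105), so the gap between libraries was also present within this subset. Depth and immune genes moved with it. The 68 capillary nuclei of library 1 had a median of 2535.5 UMIs and the 206 of library 2 a median of 1386.5. Ptprc, the leukocyte gene of CD45, had 0 and 21 UMIs (66.4 CPM) in libraries 1 and 2, Adgre1 had 0 and 5 UMIs (15.8 CPM), and Mrc1 had 10.6 and 38.0 CPM, from 2 and 12 UMIs. Their part in the gap was not tested. Cobl, which spans the Gm12002 gene on the opposite strand, was lower in library 2 as well, with 106 CPM (20 UMIs) and 6.33 CPM (2 UMIs) in capillary nuclei of libraries 1 and 2. Its capillary levels in the aging matrix were 81.4, 41.1 and 88.7 CPM in libraries 1, 2 and 3, where Gm12002 had 605, 348 and 493 CPM, so library 2 was the lowest for both genes. Ptprc had 2.96, 24.7 and 8.20 CPM in the same nuclei and was highest in library 2. Elsewhere the pair parted: Cobl had 132 CPM in skeletal muscle nuclei of the 3-month matrix, where Gm12002 had 6.51 CPM, and 98.7 CPM in Schwann nuclei of the aging matrix, where Gm12002 had 16.6 CPM. The genes most like Gm12002 over the 25 points were Erg, an endothelial transcription factor (r = 0.95), Ablim3 (r = 0.95) and Tie1, an endothelial receptor kinase (r = 0.94).

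Gm20125 and 9330188P03Rik, whose 3′ ends are printed above, were the mural genes. 9330188P03Rik had 303 CPM (261–350) and 434 CPM (371–504) in the 173 mural nuclei of each library of the 3-month matrix, and 138 CPM (127–149), 262 CPM (237–289) and 260 CPM (239–283) in the aging libraries. The next gate was 75.2-fold (25.5–367) lower in the 3-month matrix and 31.6-fold (22.3–46.4) lower in the aging matrix. Gm20125 had 161 CPM (130–196) and 110 CPM (79.9–149) in the 3-month libraries, and 395 CPM (376–414), 310.0 CPM (283–339) and 409 CPM (382–437) in the aging libraries. The single intervals of the 3-month libraries overlapped, but the direct ratio of library 2 to library 1 was 0.687 (0.468–0.992), which ends just below 1. Gm20125 was 16.2-fold (6.33–59.6) above the next gate of the aging matrix and 3.42-fold (2.50–4.74) above skeletal muscle in the 3-month matrix. No skeletal muscle gate was compared in the aging matrix or in library 1 of the 3-month matrix, which held 8 such nuclei. In that library 1 the ratio to the next gate was 16.8 (9.21–33.7).

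Mural nuclei were split, after these levels had been seen, into those with more pericyte genes (Rgs5, Kcnj8, Abcc9, Higd1b, Vtn) and those with more smooth muscle genes (Myh11, Acta2, Tagln, Lmod1, Cnn1, Myocd). In the aging matrix 9330188P03Rik had 307 CPM (292–324) in 1792 pericyte nuclei and 11 CPM (7.41–15.7) in 1161 smooth muscle nuclei. Gm20125 had 549.8 CPM (529–571) and 112 CPM (99.8–125) in the same nuclei, against 7.28 to 23.5 CPM in the other gates. In smooth muscle nuclei of libraries 1, 2 and 3 it had 131, 25 and 123 CPM, the middle value from 11 UMIs. By library, smooth muscle nuclei made up 793, 159 and 209 of these nuclei in libraries 1, 2 and 3, and in pericyte nuclei alone 9330188P03Rik had 237, 382 and 367 CPM and Gm20125 607, 441 and 536 CPM. The lower gate level of 9330188P03Rik in library 1 thus stayed the lowest of the 3 among pericytes. In skeletal muscle nuclei Gm20125 ran against Plet1os. It had 149 CPM (105–207) in nuclei led by Myh7, 64.1 CPM (30.7–118) by Myh2, 29.8 CPM (12.9–58.7) by Myh1 and 3.01 CPM (0.365–10.9) by Myh4. The level in nuclei led by Myh7 lay between the mural levels of the 3-month matrix, 161 CPM in library 1 and 110 CPM in library 2.

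**Figure D5:**
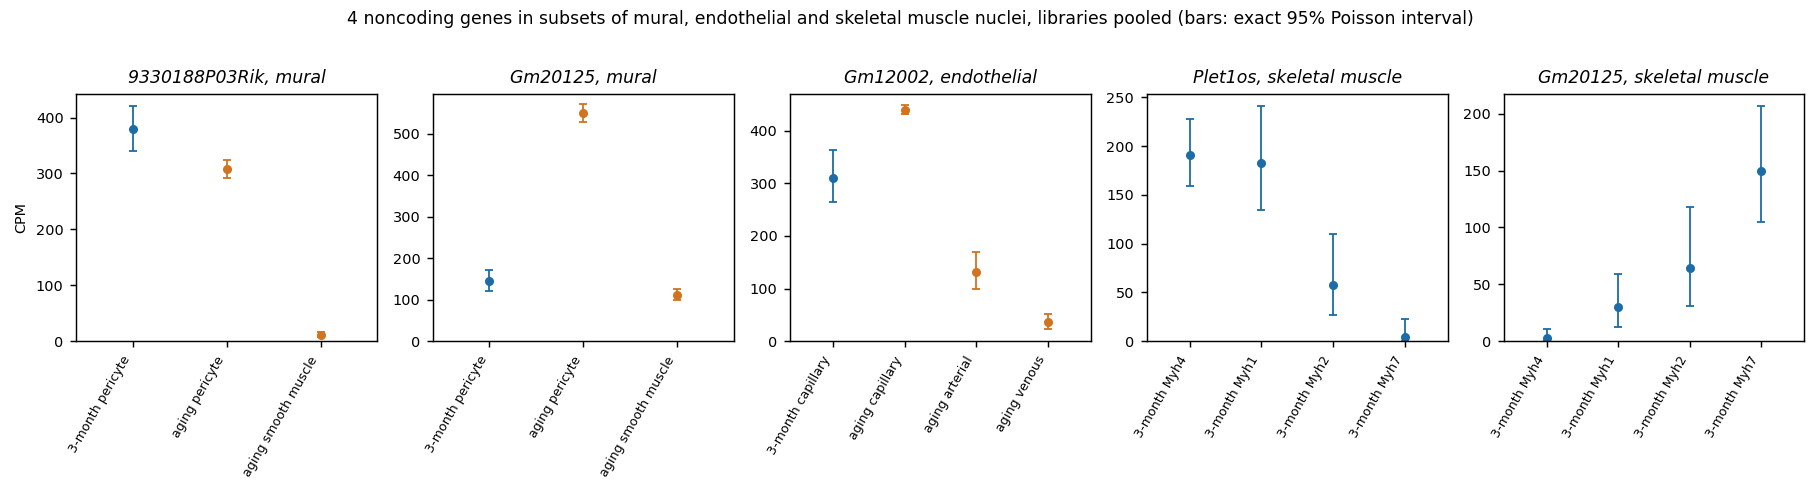
Levels (CPM, axis from 0) of 9330188P03Rik and Gm20125 in subsets of mural nuclei, of Gm12002 in subsets of endothelial nuclei, and of Plet1os and Gm20125 in skeletal muscle nuclei grouped by the myosin heavy chain with the most UMIs, with exact 95% Poisson intervals. 9330188P03Rik falls from 307 CPM in pericytes to 11 CPM in smooth muscle nuclei of the aging matrix, and the muscle orders of Plet1os and Gm20125 run opposite ways.

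The nearest protein-coding genes of both mural genes lie far off. Spry2, an inhibitor of receptor tyrosine kinase signalling 259893 bases after 9330188P03Rik, had 109 CPM in mural nuclei of the 3-month matrix and 106 CPM in those of the aging matrix, with at most 38.6 and 54.1 CPM in other gates. Ndfip2, on the other side, was counted in every gate at 39.8 to 107 CPM in the 3-month matrix. Cited2, 627411 bases after Gm20125, had 65.7 CPM in mural nuclei of the aging matrix, against at most 16 CPM elsewhere, but in the 3-month matrix its mural level of 26.0 CPM was below the 37.6 CPM of T cells, from 9 UMIs. The 2 mural genes were alike, with 9330188P03Rik the gene most like Gm20125 (r = 0.89), followed by Trpc6, a cation channel (r = 0.88), and Ctnna3 (r = 0.87). Among the genes most like 9330188P03Rik were Col13a1 (r = 0.95) and Gipr, the receptor of an incretin hormone (r = 0.94).

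Gm15987 was the immune gene, with 136 UMIs over the gates of the 3-month matrix and 123 over those of the aging matrix. It had 58.0 CPM (30.9–99.1) from 13 UMIs in 69 macrophage nuclei of library 1 and 10.2 CPM (5.59–17.2) from 14 UMIs in 396 of library 2 of the 3-month matrix, and 94.1 CPM (53.8–153) from 16 UMIs in 86 macrophage nuclei of the pooled aging libraries. It was 24.7-fold (10.3–63.5) above the next gate of the aging matrix, and level with T cells (16.9 and 16.7 CPM, the latter from 4 UMIs) in the pooled 3-month matrix. A UMI was found in 2.58% of macrophage nuclei of the 3-month matrix and in 0.423% of adipocyte nuclei, which were deeper, with medians of 2908 and 5800 UMIs. The lectin genes around it were rarer or differently placed: Clec2g, on the opposite strand, had 6 UMIs in macrophages, Clec2i had 13.2 CPM in macrophages and 50.1 CPM in T cells, and Klrb1f had 62.7 CPM in T cells. The genes most like Gm15987 were Pou2f2, a lymphoid transcription factor (r = 0.82), Prkcb, a kinase of immune cells (r = 0.81), and Fbxo33 (r = 0.80).

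A fixed list of 20 other noncoding genes was described in the same way, and 19 of them were in the tables under the listed symbol. H19 and Miat held 14 to 27 UMIs over the gates of either matrix and fell short of the 200 required, so they were not counted, although H19 was 9.00-fold above its next gate in the 3-month matrix and Miat 45.8-fold in the aging matrix. Of the rest, Carmn, a gene of smooth muscle, led one gate of the 3-month matrix by at least 4-fold, at 641 CPM in mural nuclei. For the aging matrix 3 did: Carmn in mural nuclei (838 CPM), Dnm3os in fibroblast or progenitor nuclei (126 CPM) and Snhg11 in adipocyte nuclei (39.7 CPM). Malat1 and Neat1, broadly expressed nuclear RNAs, were within 1.14-fold and 2.06-fold of their next gate in the aging matrix. The 10 genes described here were chosen for their gates and this list was not, so the 2 sets of counts are not compared.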

How the data were processed

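Nuclei were profiled with 10x 3′ v3.1 chemistry. The counts deposited by the authors are raw UMIs per gene and nucleus, made with Cell Ranger 6.1.2 on mm10 (GRCm38); Seurat 4.1.0 was used for their clustering. Intron counting, the annotation release and the strand setting are not given in the sources used here. The authors stated a range of 200 to 2000 UMIs and 100 to 3000 genes, which leaves 2763 of 20307 and 18756 of 30000 barcodes, so only its lower limits were applied, leaving 20307 and 27842. Barcode sequences shared between libraries numbered 23 and 99.

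Nuclei entered a gate with at least 3 distinct markers of 1 list (6 for adipocytes), a summed marker level of at least 0.25 (0.5) of that of marker-rich nuclei, and a lead of 1.5 times over the next list. Nuclei passing 2 lists without that lead (318 and 669) were left out, no doublet caller was run, and nuclei in no gate numbered 1724 and 2526. Gates of 50 or more nuclei were compared. Intervals are Poisson, Clopper-Pearson or conditional binomial at 95%, and 0 UMIs was read against 3 counts. On simulated data 96.1% of 1400 and 95.5% of 1200 nuclei returned to their gate in the 3-month and aging matrices. Each was drawn from the mean profile and depths of nuclei already in that gate, which favours return. No doublets, ungated nuclei or spread beyond sampling were simulated, so these shares do not measure gating errors on real nuclei.

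The members and lists were chosen with earlier results of these data known. Every member is named, with the genes overlapping it, the nearest protein-coding gene on each side and its 3 most similar genes with at least 200 UMIs in each matrix, of which 1 is not reported here. Subset lists were chosen after levels were seen. Alternatives changed the fold, the marker number, the UMI range, the depth and the libraries used. No column of values was left without a matrix. Scripts ran under Python 3.11.15 with scipy 1.17.1 for intervals, pandas 2.3.3 and numpy 2.4.6.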

Additional observations from a re-analysis of the deposited data

Results flagged for a closer look

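Gm15987 was counted at 33.6 CPM (124 UMIs) in the 1724 nuclei of the 3-month matrix that entered no gate, above the 16.9 CPM of macrophages, its leading gate, and above the 0.813 CPM that 3 counts would give there. Of the 1724 nuclei, 1642 came from library 2. Macrophages had 58.0 CPM in library 1 and 10.2 CPM in library 2, and the pooled 33.6 CPM lay between these levels. The ungated nuclei took part in none of the comparisons, and they were singled out after the levels had been seen. Of these, 568 nuclei held at least 3 genes of a list led by Gpnmb and Atp6v0d2, genes of lipid-laden macrophages. They had 21 CPM (34 UMIs), and 563 of them came from library 2. Ungated nuclei with at least 2 genes of a list led by Wdfy4 and Bank1, genes of dendritic and B cells, had 355 CPM (40 UMIs in 53 nuclei, 254–484). The markers of these 53 nuclei were mixed. Flt3, a dendritic cell gene, had 142 CPM, beside 3.08 CPM in the 568 nuclei, and Cd79a, a B cell gene, had 0 UMIs. The macrophage genes Mrc1, Adgre1 and F13a1 had 346, 151 and 71 CPM, beside 335, 181 and 27.1 CPM in the 568, so the 53 nuclei are given no cell type.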

How the results depend on the processing

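The number of genes leading 1 cell type of the 3-month matrix by 4-fold was 4, and became 7 at 2-fold, 2 at 8-fold and 0 within 200 to 2000 UMIs and 100 to 3000 genes, where fewer nuclei and UMIs remained. In the aging matrix it was 6, and 4 to 7 over the alternatives. The number at least 4 times lower in white-like nuclei was 5 with libraries pooled, 2 in library 1 alone and 0 in library 2 alone, where 7 and 3 genes could be tested, and it could not be computed within the 200 to 2000 UMI range. Among single values, 54 of 119 levels in the leading cell type, 29 of 118 ratios to the next, 18 of 20 thinned shares and 21 of 50 white-like ratios left the main value's interval. Thinning takes UMIs away, so a fall in a share follows from that step itself. The cause of the other moves was not tested. No paired analysis was possible because each condition has 1 library and no label ties a barcode number to a condition. Depth limits Gm15987 and the 3 low genes Gm11659, Gm11714 and Gm26854 most: several of their levels rest on under 10 UMIs.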
